A study of Homo sapiens with 60 samples.

Results

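The genes described are 40 genes of the G2 phase and mitosis, chosen as a list by symbol and grouped by role: mitotic entry (7 genes), polo and Aurora kinases (5), spindle checkpoint (5), kinetochore (5), mitotic kinesins (5), spindle assembly (4), cytokinesis (3), chromosome structure (2) and anaphase (4). Each matched 1 Ensembl ID of the 60675 genes in the table, and all 40 were among the 16644 genes that passed the filter on low counts. The rule for membership uses no measured value, though earlier results of these data were known when the list was made. RNA was sequenced from HepG2, a human hepatocellular carcinoma line, after 24 h with vehicle or with 1 of 7 hot-water extracts used in Korean medicine. Menthae Herba (mint) and Saposhnikoviae Radix are single herbs, and Saengmaek-san, Guibi-tang, Soyo-san, Okbyeongpung-san and Soshiho-tang are formulas of several herbs. Soyo-san is known to contain mint, and Okbyeongpung-san to contain Saposhnikovia root.

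The doses were 20, 100 and 500 µg/mL, and each was sequenced in 3 libraries, or in 1 for Soshiho-tang. The 3 vehicle libraries are labelled as 0.1% DMSO, while the design text of the series gives 2% for the vehicle. It is not given in the sources used here whether the extract wells held DMSO too. The 60 libraries fall into 22 groups, of which 19 have 3 libraries. All groups are 1 cell line, and the labels do not say that the libraries of a group came from separate cultures, so p-values measure the spread between these libraries, which may be technical. The tested effect is on the RNA of a whole well: fewer cells in G2 and mitosis and less of each mRNA per cell cannot be told apart.

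A dividing cell copies its DNA in S phase, passes through G2 and then separates its chromosomes in mitosis. Entry is driven by the kinase CDK1 bound to cyclin A or cyclin B, and exit by the anaphase-promoting complex, which marks cyclins and securin for destruction. Most genes of this group are transcribed late in the cycle: the DREAM complex holds them silent in resting cells, and MYBL2 with MuvB, and FOXM1, drive them in G2. Many of their promoters carry a cell cycle homology region (CHR), most often spelled TTTGAA, close to the start and CCAAT boxes bound by NF-Y further up. Their mRNAs are widely used as a readout of how much of a culture is cycling.

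Library totals ran from 20446542 to 32386486 counts, with a median of 25862356. Levels are given in CPM, the read count of a gene scaled to a common library total that TMM adjusts. With these totals, a count of 3 is worth 0.0923 to 0.145 CPM, and the mean vehicle level of the 40 genes ran from 18.1 CPM for CENPA to 629 CPM for MKI67, so counting error was small for every one of them. The liver markers together held 35180 to 49170 CPM in every library (8 of 8 detected, ALB and AFP among them). Summed fibroblast markers (5 genes) held 0.508 to 1.51 CPM, and PTPRC and CD3E at most 0.0432 CPM. The 4 endothelial markers summed to 3.84 to 6.06 CPM, with PECAM1 at 2.79 to 5.11 CPM and KDR at 0. The 5 leukocyte markers summed to 973 to 2678 CPM, nearly all of it LYZ, which stood at 923 to 2628 CPM with PTPRC near 0 and was highest with Menthae Herba at 500 µg/mL. Libraries also fell into 2 separate ranges of the nuclear RNA MALAT1, 174.6 to 282.6 CPM in 31 libraries and 387 to 552.5 CPM in 29. The lower range held every library of the vehicle and of the single herbs, and the higher one every library of Okbyeongpung-san, Soshiho-tang and Soyo-san. Guibi-tang and Saengmaek-san fell in both, with each replicate 1 in the lower range and each replicate 3 in the higher. The ranges also follow the order of the sample codes. Libraries up to Guibi-tang 500 µg/mL replicate 2 were all in the lower range, and those after it all in the higher. What sets the ranges was not tested.

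The promoters show what many of these genes share. RefSeq promoter entries (GRCh38.p14, 250 bases before to 50 after a transcript start) existed for 33 of the 40 genes. The letters TTTGAA, on either strand, were in an entry of 24 of the 33 (72.7%, exact binomial 95% interval 54.5 to 86.7), against 18.2% of all 27305 genes with an entry. CCAAT on either strand was in 27 of 33 (81.8%, interval 64.5 to 93) against 39.7%, and the second CHR spelling TTCGAA in 3 of 33 (9.09%) against 1.82%. Both TTTGAA and CCAAT stood in 1 entry for 19 of 33 (57.6%) against 7.26% of all genes. Within the 70 bases before the start, a window chosen after the positions were seen, TTTGAA stood on the gene's own strand in 14 of 33 (42.4%) against 2.22%. These matches describe letters in a window and are not measured binding sites.

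**Figure D1:**
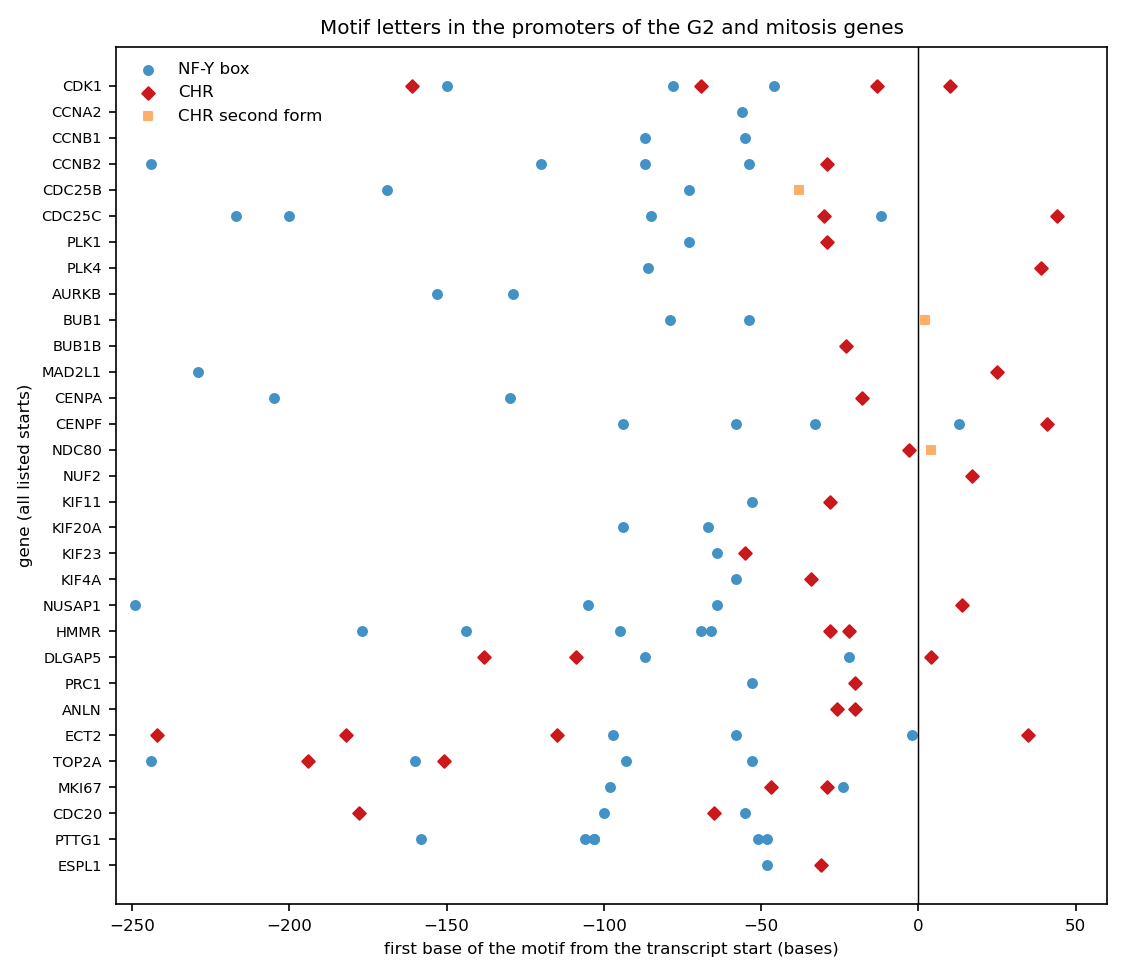
Positions of the CHR letters TTTGAA, of their second spelling and of the CCAAT box, on either strand, in the promoter entries of the 33 genes that have one, in bases from the transcript start (x axis, 250 before to 50 after), with 1 line for each of the 31 genes that hold any. CCAAT letters spread over the bases before the start, and TTTGAA letters (CHR) stand on the gene's strand within 70 bases before it in 14 genes.

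The stretches below show those letters in 3 promoters whose 120 bases before the RefSeq start lie outside GENCODE v29 exons, and in 1 with CCAAT boxes and no TTTGAA in the stretch. They are shown because they carry the arrangement counted above. Sequences are 5′ to 3′ on the gene's strand, from RefSeq (GRCh38.p14), with the CHR letters and the CCAAT boxes, in either orientation, in capitals. MKI67, ESPL1, KIF11 and CENPF are at chr10:128126424-128126543, chr12:53268179-53268298, chr10:92593010-92593129 and chr1:214603075-214603194, with MKI67 on the minus strand and the others on the plus strand.
MKI67: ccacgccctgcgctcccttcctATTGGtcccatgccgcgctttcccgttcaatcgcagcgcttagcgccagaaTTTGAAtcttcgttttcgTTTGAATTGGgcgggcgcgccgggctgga
ESPL1: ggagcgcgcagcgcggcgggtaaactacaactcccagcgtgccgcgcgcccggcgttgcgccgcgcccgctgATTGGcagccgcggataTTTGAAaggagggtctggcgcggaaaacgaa
KIF11: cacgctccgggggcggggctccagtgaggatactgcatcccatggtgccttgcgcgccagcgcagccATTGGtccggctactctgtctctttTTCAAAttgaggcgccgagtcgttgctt
CENPF: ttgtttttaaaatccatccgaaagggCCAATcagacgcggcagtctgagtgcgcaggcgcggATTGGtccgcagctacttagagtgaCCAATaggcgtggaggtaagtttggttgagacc
In MKI67 the TTTGAA nearest the start runs into a reversed CCAAT box, so that the letters of both overlap. CENPF has 3 CCAAT boxes in the stretch and KIF11 has its CHR letters reversed.

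Closer views of 30 bases around the TTTGAA nearest the start show how much the flanks vary between genes of different roles. They are PLK1 at chr16:23678848-23678877, CCNB2 at chr15:59105105-59105134, CDC20 at chr1:43358904-43358933, HMMR at chr5:163460598-163460627, BUB1B at chr15:40161034-40161063 and KIF4A at chrX:70290058-70290087, all on the plus strand. Unlike the stretches above, all 30 bases lie inside GENCODE v29 exons for PLK1, CCNB2, HMMR and BUB1B, and 0 do for CDC20 and KIF4A.
PLK1: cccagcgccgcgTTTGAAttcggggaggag
CCNB2: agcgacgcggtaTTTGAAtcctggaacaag
CDC20: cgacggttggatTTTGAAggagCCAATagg
HMMR: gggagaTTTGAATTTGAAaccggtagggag
BUB1B: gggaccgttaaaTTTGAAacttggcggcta
KIF4A: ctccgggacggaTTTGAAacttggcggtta
HMMR carries TTTGAA 2 times in a row, and CDC20 has a CCAAT box just after it. BUB1B and KIF4A, a checkpoint kinase and a kinesin, share 15 identical bases from the first letter of the CHR. The run was found in the entries of 4 genes in all, BUB1B, KIF4A, KIF4B and PDZD11. By GENCODE v29, PDZD11 overlaps KIF4A on the opposite strand, so the entries of these 2 may hold the same bases.

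Nearly the whole group was lower with Menthae Herba at 500 µg/mL. Of the 40 genes 38 were called lower than vehicle and 0 higher (edgeR's quasi-likelihood test, Benjamini-Hochberg adjusted p under 0.05 over 16644 genes, as for every call below), where 20% of all genes tested were called lower and 19.8% higher. The median log2 fold change of the 40 was -0.58, against 0.005 over all genes, 31 genes lay at -0.5 or below and 10 at -0.8 or below. All 3 Menthae Herba libraries lay below all 3 vehicle libraries for 39 of the 40 genes, as they did for 24.6% of all genes. Mean log2 ratios to vehicle over the 40 genes were between -0.608 and -0.598 in the 3 libraries. The 2 genes not called were ECT2 and BUB3. LYZ was at 940 ± 27.4 CPM in vehicle and, at 500 µg/mL, at 2586 ± 71.6 with Menthae Herba, 1823 ± 51.5 with Soyo-san, 1429 ± 73.1 with Saengmaek-san, 1275 ± 11.1 with Guibi-tang, 1164 ± 61.2 with Saposhnikoviae Radix and 1137 ± 47.3 with Okbyeongpung-san (SD, n = 3). Saengmaek-san stood above Guibi-tang in LYZ, while its mean log2 ratio over the 40 genes was -0.048 against -0.146. The part of LYZ in the result was not tested.

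**Figure D2:**
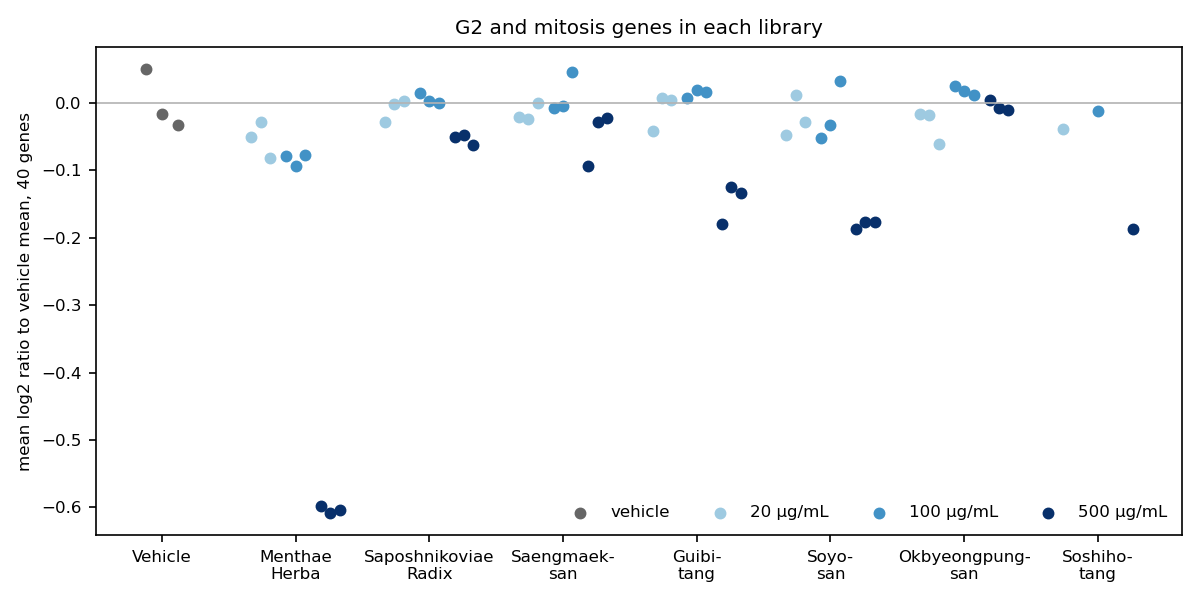
Mean log2 ratio to the vehicle mean over the 40 genes (y axis) in each of the 60 libraries, 1 point per library, grouped by extract and dose in µg/mL (x axis). The 3 Menthae Herba libraries at 500 µg/mL lie at about -0.6, Soyo-san at -0.18, Guibi-tang at -0.146 and the single Soshiho-tang library at -0.187 at that dose, and the other groups lie near 0.

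Of the genes of mitotic entry, 7 of 7 were called lower with Menthae Herba at 500 µg/mL (median -0.54). CCNA2 (chr4:121816444-121823933, GENCODE v29 on GRCh38), which encodes cyclin A2, was at 150.1, 136 and 135 CPM in the 3 vehicle libraries and at 80.2, 76.3 and 75.0 CPM with the extract. The groups did not overlap (log2 fold change -0.86, SE 0.047, adjusted p = 1.82e-21). CCNB1, which encodes cyclin B1, was at 120.3, 123 and 121 CPM in vehicle and 73.1, 71.2 and 70.5 CPM with the extract, again with no overlap (log2 fold change -0.76, SE 0.048, adjusted p = 3.70e-19). CDK1, the kinase that both cyclins activate, moved less: it was at 47.2, 45.6 and 46.6 CPM in vehicle and 37.2, 37.7 and 35.8 CPM with the extract (log2 fold change -0.33, SE 0.074, adjusted p = 2.28e-04). That was the smallest change among the 38 called genes. FOXM1, a transcription factor of G2 genes, was at 205, 200.1 and 205 CPM in vehicle and 145, 137 and 138 CPM with the extract, with separate groups (log2 fold change -0.54, SE 0.050, adjusted p = 3.74e-13). CCNB2 (cyclin B2) fell by 0.64 on the log2 scale, and the phosphatases that switch CDK1 on, CDC25C and CDC25B, by 0.47 and 0.34.

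The polo and Aurora kinases fell as well (5 of 5, median -0.59), PLK1 most. PLK1 (chr16:23677656-23690367), the polo kinase that acts from centrosome maturation to cytokinesis, was at 353, 339 and 354 CPM in vehicle and at 182, 178 and 173 CPM with Menthae Herba at 500 µg/mL. Its mean went from 349 ± 8.29 to 177 ± 4.54 CPM (SD, n = 3), 0.509 times the vehicle level (log2 fold change -0.97, SE 0.048, adjusted p = 1.69e-23). AURKA, the spindle-pole Aurora kinase, was at 202, 196 and 199.8 CPM in vehicle and 114, 109.7 and 107 CPM with the extract, without overlap (log2 fold change -0.85, SE 0.038, adjusted p = 4.21e-25). PLK4, the kinase of centriole duplication, fell by 0.59, AURKB of the chromosomal passenger complex by 0.54, and its partner survivin (BIRC5) by 0.53 on the log2 scale.

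In the spindle checkpoint, which holds anaphase until every chromosome is attached, 4 of 5 genes were called lower (median -0.51). BUB1 (chr2:110637698-110678114), a checkpoint kinase at kinetochores, was at 111, 108 and 103 CPM in vehicle and 67.0, 65.5 and 69.2 CPM with the extract, with a gap between the groups (log2 fold change -0.68, SE 0.049, adjusted p = 7.64e-17). BUB1B (BubR1), the kinase TTK (Mps1) and MAD2L1 (Mad2) fell by 0.57, 0.51 and 0.38 on the log2 scale. BUB3, the adaptor of BUB1 and BubR1, was at 102, 97.5 and 93.1 CPM in vehicle and 89.99, 93.02 and 89.08 CPM with the extract. All 3 BUB3 values with the extract were below the lowest vehicle value, but the difference did not pass the test (log2 fold change -0.10, SE 0.050, adjusted p = 0.0912).

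All 5 kinetochore genes and all 5 mitotic kinesins were called lower (medians -0.57 and -0.65). CENPE (chr4:103105806-103198409), a kinetochore motor, was at 60.3, 46.7 and 46.6 CPM in vehicle and 24.4, 27.2 and 30.1 CPM with the extract. The vehicle libraries were themselves spread, with replicate 1 the highest, and did not overlap the extract (log2 fold change -0.91, SE 0.093, adjusted p = 2.52e-11). CENPF, NDC80, the centromeric histone CENPA and NUF2 fell by 0.74, 0.57, 0.55 and 0.51 on the log2 scale. KIF20A (chr5:138178719-138187715), a kinesin of the central spindle, was at 86.4, 86.8 and 85.6 CPM in vehicle and 42.3, 46.7 and 43.4 CPM with the extract, 0.511 times as high with tight groups (log2 fold change -0.97, SE 0.046, adjusted p = 3.93e-24). KIF23, of centralspindlin, fell by 0.81 and KIF11, the motor that pushes the spindle poles apart, by 0.65, and KIF4A and KIF2C by 0.54 and 0.51.

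Spindle assembly genes were called lower in 4 of 4 cases, with a median of -0.75, the second lowest median of the 9 roles. NUSAP1 (chr15:41332694-41381050), which bundles spindle microtubules, was at 79.4, 67.4 and 69.1 CPM in vehicle and 38.6, 39.2 and 40.8 CPM with the extract (log2 fold change -0.86, SE 0.066, adjusted p = 5.33e-16). Replicate 1 was again the highest of the vehicle libraries, and all 3 lay above the extract. TPX2, the activator of Aurora A, HMMR and DLGAP5 fell by 0.77, 0.72 and 0.58 on the log2 scale. Both genes of chromosome structure fell. MKI67 (chr10:128096659-128126385), which encodes the Ki-67 protein that coats mitotic chromosomes, was at 662, 599.9 and 624 CPM in vehicle and 340.3, 312 and 329 CPM with the extract, apart by more than the spread of either group (log2 fold change -0.94, SE 0.088, adjusted p = 4.56e-12). TOP2A, which encodes topoisomerase II alpha, was at 608, 559.6 and 550.3 CPM in vehicle and 361, 363 and 383 CPM with the extract (log2 fold change -0.63, SE 0.050, adjusted p = 2.06e-15).

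Genes of anaphase were called lower in 4 of 4 cases. CDC20, an activator of the anaphase-promoting complex, was at 108, 118 and 111 CPM in vehicle and 63.8, 63.8 and 61.5 CPM with the extract, with no overlap (log2 fold change -0.83, SE 0.055, adjusted p = 1.97e-18). UBE2C (chr20:45812576-45816957), the ubiquitin-conjugating enzyme of that complex, was at 44.2, 49.8 and 46.1 CPM in vehicle and 24.8, 27.4 and 26.4 CPM with the extract (log2 fold change -0.83, SE 0.113, adjusted p = 5.78e-08). Securin (PTTG1) and separase (ESPL1), the inhibitor and the protease that cuts cohesin, moved less and fell by 0.41 and 0.39 on the log2 scale. In cytokinesis 2 of 3 genes were called lower. PRC1 (chr15:90966038-90995629), which bundles midzone microtubules, was at 111, 107 and 108 CPM in vehicle and 69.6, 77.1 and 70.3 CPM with the extract (log2 fold change -0.59, SE 0.043, adjusted p = 9.83e-17), and anillin (ANLN) fell by 0.44. ECT2, the exchange factor that activates RhoA at the cell equator, was at 70.3, 62.7 and 64.5 CPM in vehicle and 65.9, 64.3 and 66.0 CPM with the extract. These ECT2 values lie inside the vehicle range (log2 fold change -0.01, SE 0.056, adjusted p = 0.904), and the estimate turned to 0.04 without vehicle replicate 1.

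**Figure D3:**
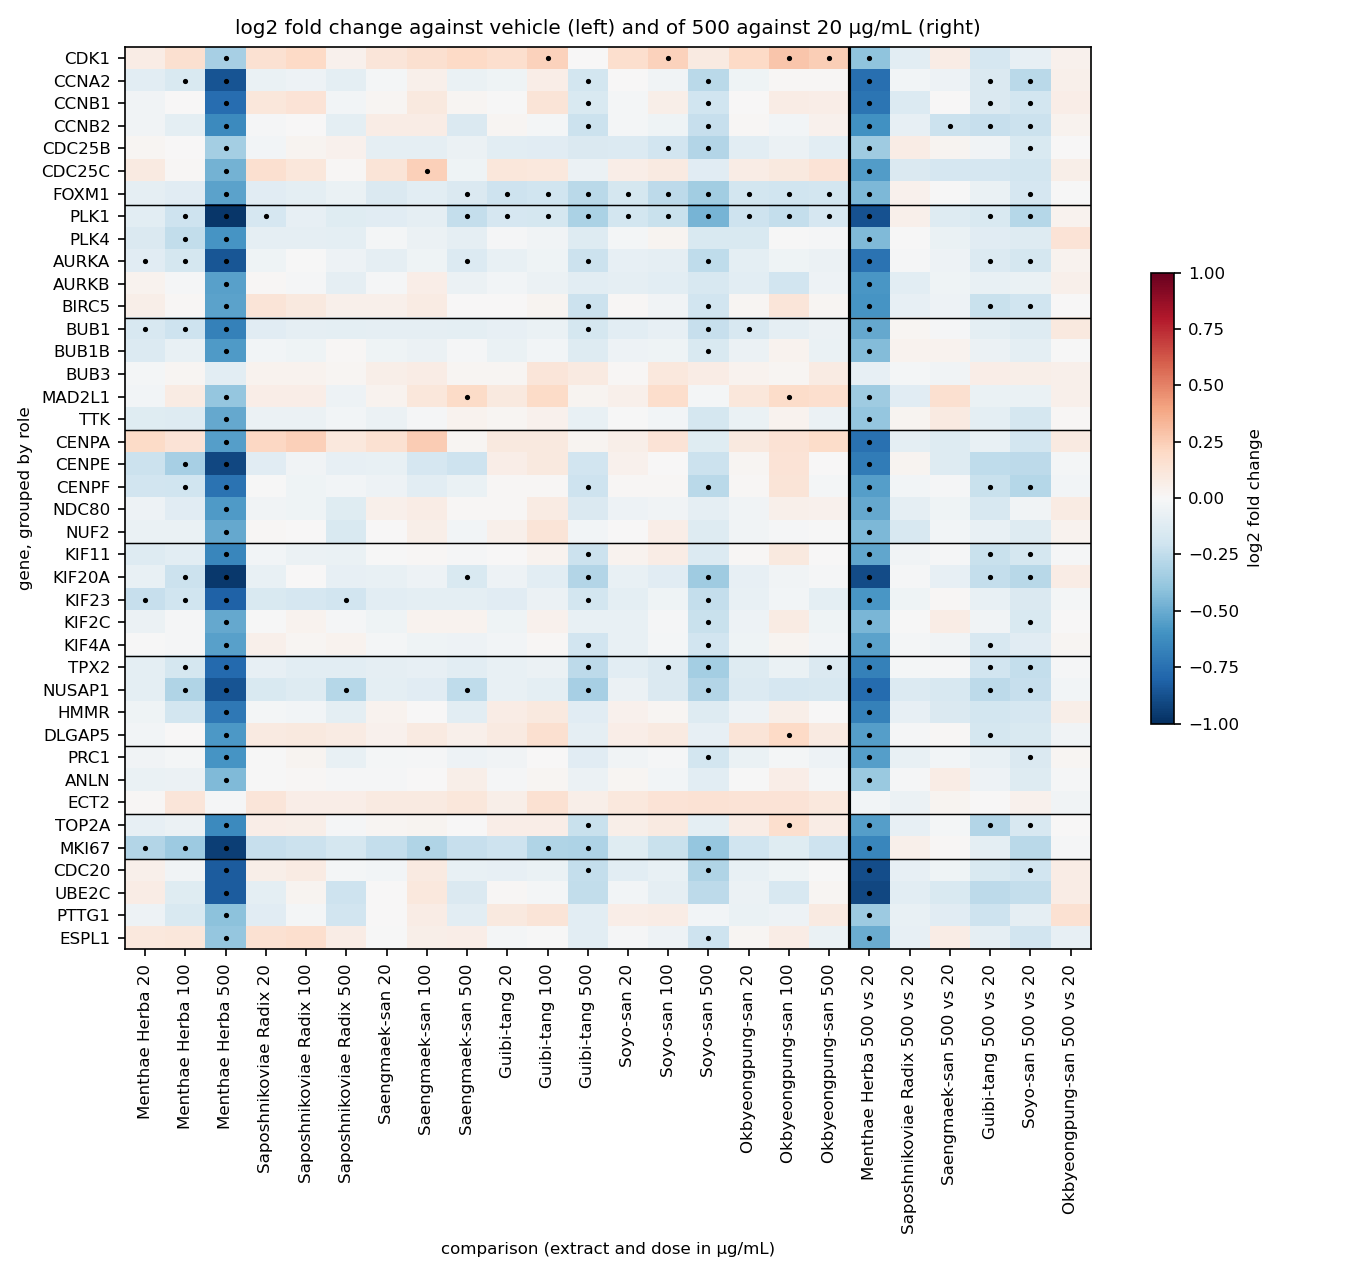
Log2 fold change of each of the 40 genes (y axis, grouped by role) in each group against vehicle (columns left of the line) and from 20 to 500 µg/mL within an extract (right of the line), as a colour scale, with a dot where the test called it. The Menthae Herba 500 µg/mL column is negative for all 40 genes, near 0 for ECT2 and BUB3, and the Menthae Herba column on the right shows the same.

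Genes without TTTGAA in an entry were lower too. The 24 genes with TTTGAA in a promoter entry had a median log2 fold change of -0.58 (range -0.97 to -0.01) with Menthae Herba at 500 µg/mL. The 9 genes with an entry and no TTTGAA, among them CCNA2, CCNB1, CENPE and KIF20A, had a median of -0.68 (range -0.97 to -0.34). BUB1 and CDC25B, among these 9, have the second CHR spelling TTCGAA. These are descriptions with no test. ECT2, not called, has TTTGAA in a promoter entry.

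Most of the change lay between 100 and 500 µg/mL. From 20 to 100 µg/mL of Menthae Herba, 0 of the 40 genes were called in either direction (0.445% of all genes lower and 0.505% higher; 3 of the 40 at an unadjusted p under 0.05). From 100 to 500 µg/mL, 37 were called lower (12.7% of all genes), all but BUB3, ECT2 and PTTG1, with a median of -0.54. From 20 to 500 µg/mL, a comparison that does not use the vehicle, 38 were called lower and 0 higher (16% of all genes lower), with a median of -0.55. CCNB1 shows the pattern: it was at 128, 117 and 111 CPM at 20, 124, 121 and 119.9 CPM at 100 and 73.1, 71.2 and 70.5 CPM at 500 µg/mL. The first 2 doses overlap each other and the vehicle, and the third stands alone. UBE2C had the most negative change from 20 to 500 µg/mL, from 48.0, 51.5 and 48.1 to 24.8, 27.4 and 26.4 CPM (log2 fold change -0.91, SE 0.112, adjusted p = 1.00e-08). KIF20A, CDC20, PLK1 and NUSAP1 followed with -0.90, -0.88, -0.87 and -0.77.

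Against vehicle, 12 genes were called lower at 100 µg/mL of Menthae Herba (7.11% of all genes) and 4 at 20 µg/mL (3.39%). MKI67 was the largest at both doses, at 501, 518 and 522 CPM at 20 and 466, 475 and 523 CPM at 100 µg/mL. All of these lie below the lowest vehicle library (log2 fold change -0.29, SE 0.087, adjusted p = 0.0348 at 20 and log2 fold change -0.36, SE 0.087, adjusted p = 0.00331 at 100 µg/mL). CENPE, NUSAP1, PLK4 and KIF20A followed at 100 µg/mL with log2 fold changes of -0.33, -0.30, -0.25 and -0.21, and KIF23, BUB1 and AURKA at 20 µg/mL with -0.23, -0.16 and -0.12. Vehicle replicate 1 had the highest summed level of the 40 genes among the vehicle libraries, 4983 CPM against 4722 and 4725, and was the highest of the 3 for 26 of the 40. Without it 6 genes were called at 100 µg/mL and 0 at 20 µg/mL, and 6 also without Menthae Herba 100 µg/mL replicate 2. The 4 at 20 µg/mL were 2 without vehicle replicate 2 or 3 or without replicate 3 at that dose, and 1 without its replicate 1. CDK1 went the other way at these doses without passing the test, with 53.7, 53.4 and 39.5 CPM at 20 µg/mL, where replicate 3 stood below the others, and 52.5, 51.6 and 51.4 CPM at 100 µg/mL.

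**Figure D4:**
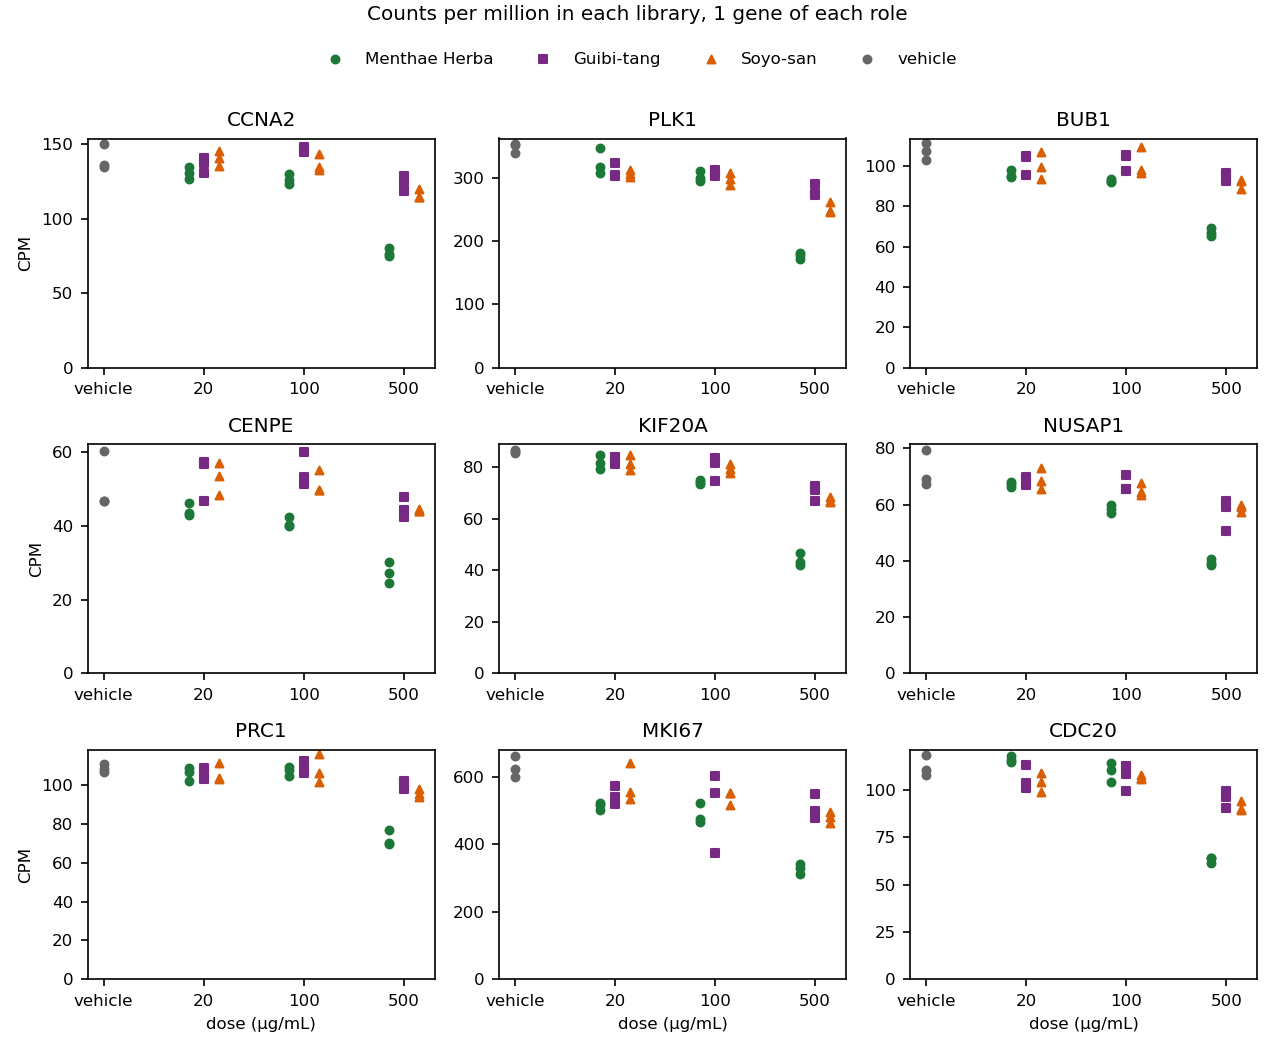
CPM in each library (y axis, from 0) for 1 gene of each role in vehicle and with 20, 100 and 500 µg/mL (x axis) of Menthae Herba, Guibi-tang or Soyo-san, 1 point per library. The Menthae Herba points at 500 µg/mL lie below all other points in each of the 9 panels, with PLK1 at 173 to 182 CPM against 339 to 354 CPM in vehicle.

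Part of the group was lower with Guibi-tang and Soyo-san at 500 µg/mL, by smaller amounts. From 20 to 500 µg/mL, Guibi-tang had 14 genes called lower and 0 higher (3.29% of all genes lower), with a median of -0.14 over the 40. TOP2A had the most negative change, from 559, 619.9 and 624 CPM at 20 to 477, 487 and 511 CPM at 500 µg/mL. The groups did not overlap (log2 fold change -0.29, SE 0.050, adjusted p = 3.27e-05). NUSAP1 was at 67.0, 69.0 and 69.8 CPM at 20 and 50.6, 59.3 and 61.2 CPM at 500 µg/mL, with replicate 1 the lowest at 500 (log2 fold change -0.26, SE 0.064, adjusted p = 0.00412). KIF20A was at 84.2, 81.3 and 84.1 and 67.1, 72.6 and 71.2 CPM, also with no overlap (log2 fold change -0.24, SE 0.044, adjusted p = 8.49e-05). CCNB2 and CENPF followed with -0.23 and -0.22, and CENPF values at 20 µg/mL, 230.4, 274 and 261 CPM, overlapped those at 500 µg/mL, 209, 213 and 236 CPM. By role, 3 of 5 kinesins, 3 of 5 polo and Aurora kinase genes, 3 of 4 spindle assembly genes and 3 of 7 entry genes were called. Called in the checkpoint, anaphase and cytokinesis were 0 of 5, 0 of 4 and 0 of 3 genes. The anaphase genes UBE2C, PTTG1, CDC20 and ESPL1 had log2 fold changes of -0.26, -0.21, -0.15 and -0.09. AURKA, which was called, had -0.14 with an SE of 0.037, where UBE2C, PTTG1 and CDC20 had SEs of 0.109, 0.119 and 0.053. The count of called genes was 7 to 12 when 1 library was left out. It was 7 without 500 µg/mL replicate 1, 20 µg/mL replicate 2 or 20 µg/mL replicate 3, and 9 without 500 µg/mL replicate 2. It was 6 when only the groups at 20 and 500 µg/mL were fitted. The groups mixed the MALAT1 ranges, with replicates 1 and 2 at 500 µg/mL and replicate 1 at 20 µg/mL in the lower one, and 15 genes were called with the range as a term.

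Soyo-san had 17 genes called lower and 0 higher from 20 to 500 µg/mL (3.29% of all genes lower), with a median of -0.17. PLK1 was at 301, 306 and 313 CPM at 20 and 248, 247 and 262 CPM at 500 µg/mL, with a clear gap (log2 fold change -0.28, SE 0.047, adjusted p = 1.73e-05). KIF20A went from 81.5, 84.8 and 79.0 to 66.4, 66.9 and 68.5 CPM (log2 fold change -0.28, SE 0.045, adjusted p = 6.76e-06), and CCNA2 from 141, 145 and 136 to 120.2, 114 and 115 CPM (log2 fold change -0.27, SE 0.047, adjusted p = 3.01e-05). Neither gene's groups overlapped. CENPF was at 252, 273 and 240.2 CPM at 20 and 209, 217 and 203 CPM at 500 µg/mL (log2 fold change -0.28, SE 0.066, adjusted p = 0.00248), and TPX2 at 281, 331 and 299 and 261, 254 and 257 CPM (log2 fold change -0.24, SE 0.046, adjusted p = 1.95e-04). All values at 500 were below all values at 20 µg/mL for both genes. By role, 5 of 7 entry genes and 3 of 5 genes in each of the polo and Aurora kinases and the kinesins were called, and 0 of 5 checkpoint genes. The checkpoint genes TTK, BUB1, BUB1B, MAD2L1 and BUB3 had -0.17, -0.13, -0.10, -0.07 and 0.06, beside -0.15 for KIF2C, which was called. Leaving out 1 library gave 9 to 14 called genes: 9 without 20 µg/mL replicate 2, and 10 without 500 µg/mL replicate 1 or replicate 2.

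Of the genes called with the formulas, 12 were common to both, 85.7% of the 14 with Guibi-tang and 70.6% of the 17 with Soyo-san. They were AURKA, BIRC5, CCNA2, CCNB1, CCNB2, CENPF, KIF11, KIF20A, NUSAP1, PLK1, TOP2A and TPX2. Over all genes, 3.29% were called lower with each formula, and how many of those were common to both was not counted. The overlap can therefore not be read as particular to this group. DLGAP5 and KIF4A were called with Guibi-tang and not Soyo-san, and CDC20, CDC25B, FOXM1, KIF2C and PRC1 with Soyo-san and not Guibi-tang. The direct test of the difference between the formulas called 0 of the 40 genes (1.04% of all genes lower and 1% higher; 0 of 40 also at an unadjusted p under 0.05 and 0 by DESeq2). The steps lay in the same place as with Menthae Herba: from 20 to 100 µg/mL 0 genes were called with either formula (0.018% of all genes lower and 0.0601% higher with Guibi-tang, 2 of the 40 at an unadjusted p under 0.05, and 0% and 0.00601% with Soyo-san, 0 of the 40), and from 100 to 500 µg/mL 15 with Guibi-tang (1.77%) and 17 with Soyo-san (2.08%) were lower. For scale, PLK1 was at 275, 289.9 and 274 CPM with Guibi-tang, 248, 247 and 262 CPM with Soyo-san and 182, 178 and 173 CPM with Menthae Herba at 500 µg/mL, 3 ranges that do not touch. The formulas were not tested against each other at this dose alone, and the share of all genes separated between them was not counted. All of these Soyo-san libraries lay in the higher MALAT1 range, and Guibi-tang replicates 1 and 2 in the lower one.

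**Figure D5:**
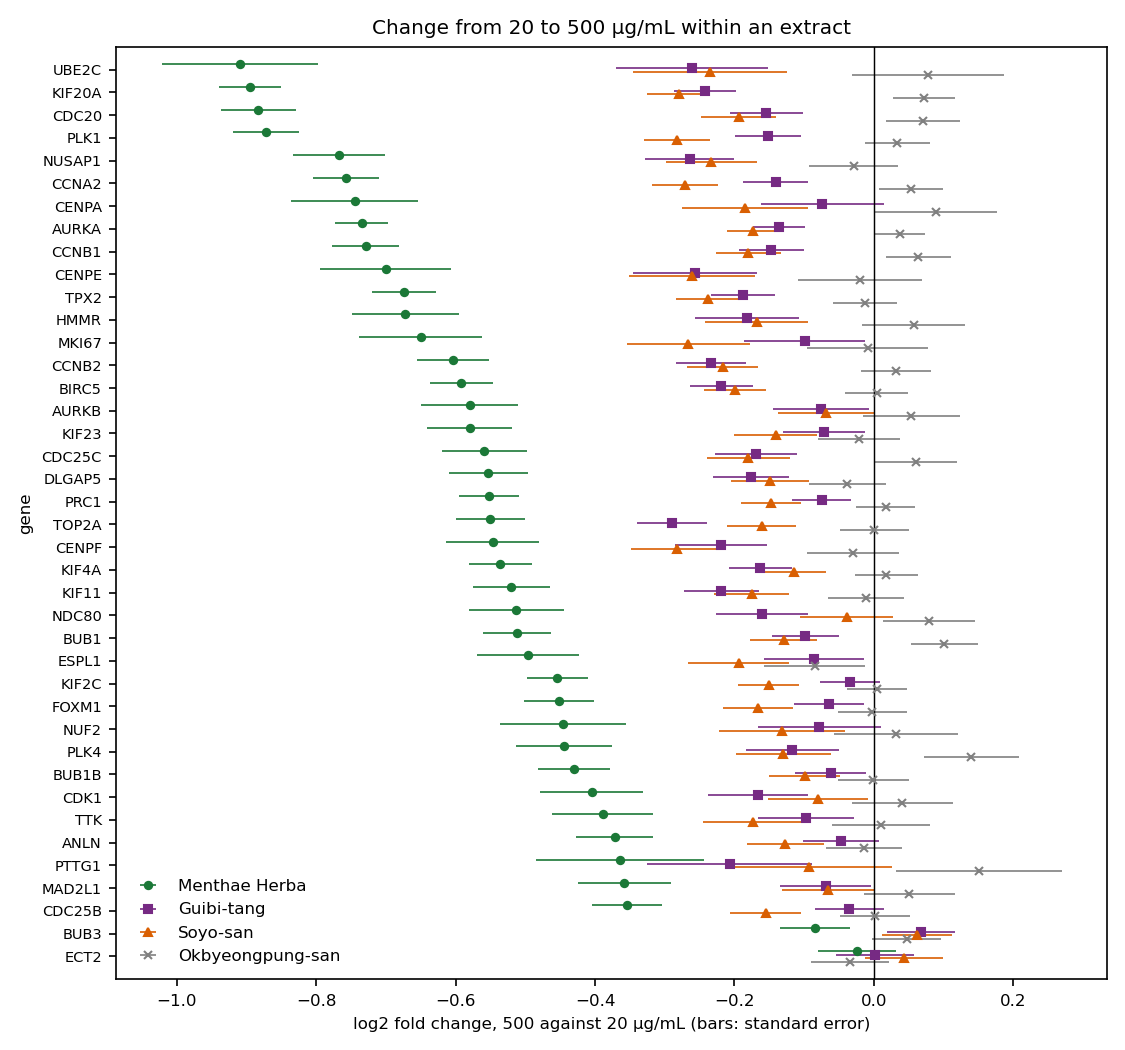
Log2 fold change from 20 to 500 µg/mL (x axis, bars are standard errors) of each of the 40 genes (y axis) within Menthae Herba, Guibi-tang, Soyo-san and Okbyeongpung-san. Menthae Herba points reach -0.91, those of Guibi-tang and Soyo-san lie between -0.29 and 0.07, and those of Okbyeongpung-san between -0.09 and 0.15.

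Few genes were called with the other 3 replicated extracts. From 20 to 500 µg/mL, 0 genes were called with Saposhnikoviae Radix (0.186% of all genes lower and 0.204% higher; 3 of the 40 at an unadjusted p under 0.05 and 0 by DESeq2) and 0 with Okbyeongpung-san (0.00601% lower and 0.018% higher; 2 at an unadjusted p under 0.05 and 0 by DESeq2). With Saengmaek-san 1 was called, CCNB2 (0.973% of all genes lower), from 57.2, 58.7 and 60.8 CPM at 20 to 46.9, 52.3 and 53.0 CPM at 500 µg/mL (log2 fold change -0.22, SE 0.051, adjusted p = 0.0086). Median log2 fold changes over the 40 were -0.04, 0.03 and -0.03 for Saposhnikoviae Radix, Okbyeongpung-san and Saengmaek-san. PLK1 with Okbyeongpung-san was at 307, 325 and 276 CPM at 20 and 315, 305 and 309 CPM at 500 µg/mL, which overlap.

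The difference in the change from 20 to 500 µg/mL between Menthae Herba and each other replicated extract was tested directly. It was more negative with Menthae Herba for 35 of the 40 genes against Saposhnikoviae Radix (9.95% of all genes), 37 against Saengmaek-san (6.8%), 36 against Guibi-tang (8.55%), 31 against Soyo-san (3.08%) and 38 against Okbyeongpung-san (10.9%), and less negative for 0 in each. CDC20 differed from Soyo-san by -0.69 on the log2 scale (SE 0.076, adjusted p = 5.05e-09). UBE2C, KIF20A, PLK1 and AURKA followed with -0.68, -0.61, -0.59 and -0.56. The 9 genes with no tested difference from Soyo-san included MKI67, ESPL1 and CENPF besides ECT2 and BUB3. Among the formulas, Soyo-san was more negative than Okbyeongpung-san for 8 genes (0.853% of all genes), with KIF20A at -0.35, CCNA2 at -0.32 and PLK1 at -0.32, and Guibi-tang than Saengmaek-san for 1, TOP2A at -0.27 (0.348%). Without 1 library the 8 became 3 to 7, with 3 without Okbyeongpung-san 500 µg/mL replicate 1 or 20 µg/mL replicate 3 and 4 without Soyo-san 500 µg/mL replicate 1 or 20 µg/mL replicate 2. Between Guibi-tang and Saengmaek-san no gene was called in 8 of the 12 fits without 1 library, among them those without replicate 1 of either at 500 µg/mL. These comparisons between formulas were chosen after the values were seen.

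Against vehicle at 500 µg/mL, 21 genes were called lower with Soyo-san (11.4% of all genes lower), 18 with Guibi-tang (6.83%), 5 with Saengmaek-san (6.86%), 3 with Okbyeongpung-san (4.95%) and 2 with Saposhnikoviae Radix (2.9%). Called higher were 1 with Saengmaek-san, MAD2L1 (5.71% of all genes higher), and 1 with Okbyeongpung-san, CDK1 (4.16%). These comparisons share the 3 vehicle libraries. With Soyo-san the largest were PLK1, MKI67, KIF20A, FOXM1 and TPX2, at -0.47, -0.39, -0.36, -0.34 and -0.34. With Guibi-tang they were NUSAP1, PLK1, MKI67, KIF20A and FOXM1, at -0.33, -0.32, -0.31, -0.29 and -0.27. Vehicle and Soyo-san libraries lay in different MALAT1 ranges. In a fit with the MALAT1 range as a term, 5 of the 40 genes were called lower in the higher range and 9 higher (14.8% and 10.5% of all genes). The median difference was 0.05, and 26 genes were then called lower with Soyo-san and 20 with Guibi-tang. Only Guibi-tang and Saengmaek-san groups held both ranges, so the term was estimated from those groups alone. There each replicate 1 was in the lower range and each replicate 3 in the higher, so the term is mixed with the replicate number. For Soyo-san against vehicle, the range and the extract cannot be told apart. Without 500 µg/mL replicate 1, the Guibi-tang count was 12.

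At the lower doses few of the 40 genes were called against vehicle. With Saposhnikoviae Radix 0 were called at 100 µg/mL (2.66% of all genes lower and 2.72% higher; 9 of the 40 at an unadjusted p under 0.05 and 1 by DESeq2) and 1, PLK1, at 20 µg/mL (3.63% lower). With Saengmaek-san 0 were called at 20 µg/mL (1.97% lower and 1.45% higher; 6 of the 40 at an unadjusted p under 0.05 and 1 by DESeq2), and 1 lower and 1 higher at 100 µg/mL (3.36% and 2.7%), MKI67 at -0.30 and CDC25C at 0.24. At 100 µg/mL, 3 were lower and 1 higher with Guibi-tang (4.77% and 3.12%), 4 and 1 with Soyo-san (4.93% and 3.35%), and 2 and 4 with Okbyeongpung-san (7.01% and 5.91%). At 20 µg/mL, 3 were lower with Okbyeongpung-san (3.8%), PLK1, FOXM1 and BUB1. MKI67 with Guibi-tang at 100 µg/mL was at 553, 375 and 602 CPM, where replicate 2 stood far below the others (log2 fold change -0.30, SE 0.087, adjusted p = 0.0245).

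PLK1 and FOXM1 were called below vehicle with several extracts already at low dose, in comparisons that share the 3 vehicle libraries. Over the 18 replicated extract groups PLK1 was called lower than vehicle in 13, 8 of them at 20 or 100 µg/mL, with log2 fold changes from -0.97 to -0.09. FOXM1 was called lower in 11, 6 of them at 20 or 100 µg/mL (-0.54 to -0.07), and MKI67 in 7, 4 of them at 20 or 100 µg/mL. PLK1 at 20 µg/mL was at 301, 306 and 313 CPM with Soyo-san, 323, 303 and 305 CPM with Guibi-tang and 307, 308 and 314 CPM with Saposhnikoviae Radix, each set below the lowest vehicle library at 339 CPM. FOXM1 at 20 µg/mL was at 176, 182 and 181 CPM with Soyo-san and 188, 171 and 171 CPM with Guibi-tang, all below the lowest vehicle library at 200.1 CPM. These small differences rest on few libraries: with Soyo-san and with Guibi-tang at 20 µg/mL, PLK1 and FOXM1 were the 2 genes called (2.33% and 2.53% of all genes lower), and neither was called with Soyo-san without vehicle replicate 3 or Soyo-san replicate 1, or with Guibi-tang without its replicate 2 or its replicate 3. All vehicle libraries lay in the lower MALAT1 range, as did Guibi-tang 20 µg/mL replicate 1, while its replicates 2 and 3 and all of Soyo-san lay in the higher one. With that range as a term, estimated from the Guibi-tang and Saengmaek-san groups alone, FOXM1 was lower in the higher range (log2 difference -0.08, SE 0.027, adjusted p = 0.0252). The 2 calls became 0 with Guibi-tang and 1 with Soyo-san.

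CDK1 was called higher than vehicle in 4 groups, Guibi-tang and Soyo-san at 100 µg/mL and Okbyeongpung-san at 100 and 500 µg/mL, and lower in 1, Menthae Herba at 500 µg/mL. It was at 54.8, 59.7 and 54.1 CPM with Okbyeongpung-san at 100 µg/mL, above the 47.2, 45.6 and 46.6 CPM of vehicle (log2 fold change 0.28, SE 0.072, adjusted p = 0.00759). All vehicle libraries lay in the lower MALAT1 range, and all of Soyo-san and Okbyeongpung-san in the higher one. Guibi-tang 100 µg/mL replicates 2 and 3 were in the higher range too. For Soyo-san and Okbyeongpung-san against vehicle, the range and the extract cannot be told apart. In order of mean level, CDK1 was lowest with Menthae Herba at 500 µg/mL (36.9 ± 0.991 CPM, SD, n = 3), and vehicle (46.4 ± 0.822) and Guibi-tang at 500 µg/mL (46.5 ± 0.444) came next and differed by less than their spread. In all, 121 of 720 gene and group pairs were called lower than vehicle, 38 of them with Menthae Herba at 500 µg/mL, and 9 higher. The share of all genes called lower ran from 1.97% with Saengmaek-san at 20 µg/mL to 20% with Menthae Herba at 500 µg/mL. In the groups with any of the 9, 2.7% to 5.91% of all genes were called higher. The pairs share the 3 vehicle libraries and are not separate observations. Every group with any of the 9 held libraries of the higher MALAT1 range. The 9 were in 5 genes, CDK1, MAD2L1, CDC25C, DLGAP5 and TOP2A, with log2 fold changes of 0.17 to 0.28 (4 of them with Okbyeongpung-san at 100 µg/mL, where 5.91% of all genes were called higher). Without a filter on low counts or when only those 2 groups were fitted, more genes were lower than higher there, of 5 and 3 called. In the fit with the MALAT1 range as a term, the higher range was set against the lower. CDK1, MAD2L1, CDC25C, DLGAP5 and TOP2A then had log2 differences of 0.08, 0.08, -0.06, 0.03 and 0.09, and of these only TOP2A was called.

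Soshiho-tang had 1 library per dose, so there is no replicate check and no test. PLK1 was at 279 CPM (95% Poisson interval 272 to 286) at 20, 285 (279 to 292) at 100 and 233 (227 to 239) at 500 µg/mL. CDK1 was at 60.6 CPM (57.5 to 63.7), 56.0 (53.2 to 58.9) and 51.3 (48.6 to 54.1) at the same doses. MKI67 was at 483 CPM (474 to 492), 589 (579 to 598) and 474 (465 to 482), so that its lowest and highest doses lie together and the middle dose apart. The intervals cover counting error only. From 20 to 500 µg/mL 37 of the 40 genes had a lower level and 3 a higher one, where 50.9% of the 13283 genes with a mean of at least 1 CPM were lower. The median log2 ratio was -0.16, with -0.004 over those genes. NDC80, UBE2C, TPX2, CENPE and KIF2C were lowest, at -0.31, -0.29, -0.27, -0.27 and -0.26. For 22 of the 40 genes the intervals at 20 and 500 µg/mL did not overlap. The share of all genes with separate intervals was not counted, so the 22 cannot be read as particular to this group.

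Genes outside the 40 that act with them were counted from lists made with earlier results known. With Menthae Herba at 500 µg/mL against vehicle, 19 of 24 further kinetochore genes were called lower, 7 of 8 condensin genes, 11 of 12 cohesin and shugoshin genes, and 6 of 8 further checkpoint and passenger genes, with 0 higher in each, where 20% of all genes were called lower. CDCA8 (borealin), which holds the passenger complex together, was at 65.8, 68.8 and 70.9 CPM in vehicle and 37.1, 35.9 and 34.4 CPM with the extract (log2 fold change -0.93, SE 0.045, adjusted p = 7.57e-24), and SGO2, a protector of centromeric cohesin, had a log2 fold change of -0.87. SKA3 and the condensin subunit SMC4 had -0.77 and -0.67. Subunits of the anaphase-promoting complex, which is present throughout the cycle, were mixed: 6 of 16 lower and 2 of 16 higher, against 20% and 19.8% of all genes, with ANAPC15 at -0.51 and ANAPC11 at 0.43.

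Genes that act upstream were counted in the same comparison, with the same 20% lower and 19.8% higher over all genes. Of the MuvB, DREAM and MYB genes, 10 of 12 were called lower and 0 higher, with LIN9, RBL1 and LIN52 at -0.59, -0.50 and -0.44. DNA replication genes were lower in 37 of 40 cases, with 0 higher and a median of -0.41, so that the S phase genes fell beside the mitotic ones. MCM10, GINS2 and UHRF1 had the most negative of these, -0.67, -0.62 and -0.62. Of 8 G1 cyclins and kinases 4 were lower, CDK2, CCND1 and CCNE1 at -0.55, -0.48 and -0.42. Among 8 tested brakes on CDK1 and CDK2, 2 were higher and 2 lower, near the share over all genes in both directions. CDKN1A (p21), an inhibitor of cyclin-dependent kinases, was at 81.2, 92.9 and 87.7 CPM in vehicle and 111, 126 and 114 CPM with the extract (log2 fold change 0.42, SE 0.059, adjusted p = 3.05e-08). SFN (14-3-3 sigma), which keeps cyclin B1 with CDK1 in the cytoplasm, was at 15.4, 17.1 and 18.3 and 23.0, 27.1 and 24.9 CPM (log2 fold change 0.56, SE 0.085, adjusted p = 2.19e-07). WEE1, the kinase that inhibits CDK1, and p27 (CDKN1B) were lower, at -0.32 and -0.24.

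With the formulas from 20 to 500 µg/mL, 3.29% of all genes were called lower with each. DNA replication genes were lower in 7 of 40 cases with Soyo-san, MCM3 and MCM7 at -0.25 and -0.24 among them. Further kinetochore genes were lower in 0 of 24 cases with Guibi-tang (3 at an unadjusted p under 0.05) and in 1 of 24 with Soyo-san, SKA2 at -0.19. CDCA8 was lower with both (-0.20 and -0.35), as was CDK2 (-0.20 and -0.23). CDKN1A was higher with both, from 70.7, 69.9 and 67.4 to 83.1, 82.3 and 74.5 CPM with Guibi-tang (log2 fold change 0.20, SE 0.060, adjusted p = 0.0201) and from 70.7, 66.4 and 80.4 to 83.8, 87.8 and 94.0 CPM with Soyo-san (log2 fold change 0.29, SE 0.060, adjusted p = 5.46e-04). Against vehicle these CDKN1A levels at 500 µg/mL overlap the 81.2, 92.9 and 87.7 CPM of the 3 vehicle libraries. SFN rose by 0.41 and 0.34 on the log2 scale. Of the tested brakes on CDK1 and CDK2, only CDKN1A and SFN were called with either formula. The share of all genes called higher in these comparisons is not given here, so these rises cannot be read as particular to the brakes.

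How far single genes can be read depends on shared sequence. Counts were whole numbers in all libraries for 27 of the 40 genes and fractional in over 50% of libraries for 8: AURKA, CCNA2, CDC25C, FOXM1, KIF23, KIF4A, PLK1 and PRC1. Fractions arise where reads fit more than 1 gene or locus. By GENCODE v29, 23 of the 40 overlap another gene, such as BUB1B and the readthrough gene BUB1B-PAK6, or PLK1 and ERN2 on the opposite strand. The library kit keeps the strand, and whether counting used it is not given in the sources used here, so the level of such a gene is uncertain where its neighbour is expressed.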

How the data were processed

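RNA from HepG2 cells was sequenced as 100 bp read pairs from a directional kit, per the labels' protocols. The authors deposited estimated counts per gene for 60 libraries. Per the submitters' processing notes, FastQC 0.11.9, Trim Galore 0.6.5, STAR 2.7.3a and RSEM 1.3.3 were used with GRCh38. Neither the annotation nor the strand setting of that step is stated in the labels or headers. Of the nonzero values, 71.9% were whole, and values were rounded for the test. IDs with no symbol held 0.13% of counts.

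Groups came from the sample labels. The 57 libraries of the 19 replicated groups were fitted together in edgeR 4.0.16 (R 4.3.3; TMM, filterByExpr with a minimum count of 10, robust quasi-likelihood), with Benjamini-Hochberg adjustment over 16644 genes and a threshold of 0.05. SE is the absolute log2 fold change over the square root of F. The scripts were tested on simulated data.

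The 40 members and the other gene lists were chosen with earlier results of these data known. Genes named with values in every library are the largest change of each role with Menthae Herba at 500 µg/mL plus CDK1, CCNB1, PLK1, AURKA, CDC20, TOP2A, MKI67 and FOXM1. In other comparisons up to 5 called genes per direction are named, and 3 per direction in other lists. ECT2, BUB3 and the genes shown at low dose were named after their values were seen, as were the comparisons between formulas and the range of MALAT1 (limit 300 CPM) used as a covariate. The alternatives were RLE size factors, no filter, DESeq2 1.42.0, only the groups compared, a replicate block and leaving out each library. In no comparison did all 3 same-number correlations of the deviations pass 0.1, so the numbers were not used as pairs. Some single correlations did pass it. From 20 to 500 µg/mL they were 0.131 and 0.158 for numbers 1 and 3 with Guibi-tang and 0.195 for number 3 with Saengmaek-san. For Saengmaek-san at 100 µg/mL and vehicle, number 2 had 0.103. The rule does not show that same-numbered libraries are unrelated. Gene positions are from GENCODE v29 and promoters from RefSeq, both on GRCh38.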

Additional observations from a re-analysis of the deposited data

Results flagged for a closer look

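The change of the G2 and mitosis genes from 20 to 500 µg/mL differed between extracts when the difference itself was tested (edgeR's quasi-likelihood test, adjusted p under 0.05 over all genes). It was more negative with Menthae Herba than with Saposhnikoviae Radix for 35 of the 40 genes (9.95% of all genes), than with Saengmaek-san for 37 (6.8%), than with Guibi-tang for 36 (8.55%), than with Soyo-san for 31 (3.08%) and than with Okbyeongpung-san for 38 (10.9%). BUB3 and ECT2 were called in none of these 5 comparisons. Soyo-san differed from Okbyeongpung-san for 8 genes (AURKA, CCNA2, CCNB1, CCNB2, CDC20, KIF20A, PLK1 and TPX2), where 0.853% of all genes were called in that direction, and for 3 to 7 without 1 library. Guibi-tang differed from Saengmaek-san for 1, TOP2A (0.348% of all genes), and for 0 to 1 without 1 library.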

How the results depend on the processing

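With Menthae Herba at 500 µg/mL, 38 genes were called against vehicle and 38 against 20 µg/mL under every alternative that kept all libraries, and 38 and 37 to 38 without 1 library. Most counts that moved were small. With only the groups compared in the fit, the calls against vehicle at 20 µg/mL were 1 with Menthae Herba, 2 with Saposhnikoviae Radix, 1 with Saengmaek-san, 0 with Guibi-tang and 0 with Okbyeongpung-san. They were 3, 1, 0 and 3 at 100 µg/mL with Saposhnikoviae Radix, Saengmaek-san, Guibi-tang and Okbyeongpung-san, where more were then lower than higher with the last, and 1 and 1 at 500 µg/mL with Saposhnikoviae Radix and Saengmaek-san. From 20 to 500 µg/mL they were 6 with Guibi-tang and 0 with Saengmaek-san, and 0 for the difference of these 2. Without a filter on low counts they were 1 with Saposhnikoviae Radix at 500 and 2 at 100, 1 with Saengmaek-san at 20, 1 with Soyo-san at 20, 5 with Okbyeongpung-san at 100 (more lower than higher) and 3 for Soyo-san against Okbyeongpung-san. With the MALAT1 range as a covariate they were 2 and 2 with Saposhnikoviae Radix at 100 and 20, 5 with Saengmaek-san at 100, 2 and 0 with Guibi-tang at 100 and 20, 1 with Soyo-san at 20, 5 with Okbyeongpung-san at 20 and 2 for Guibi-tang against Saengmaek-san. That covariate was estimated from the Guibi-tang and Saengmaek-san groups alone, the only ones with libraries in both ranges. In those groups it is mixed with the replicate number. DESeq2 gave 1 and 2 with Saposhnikoviae Radix at 100 and 20, 1 with Saengmaek-san at 20 and 5 with Okbyeongpung-san at 20. The causes were not tested.

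Without 1 library, calls against vehicle at 500, 100 and 20 µg/mL ran over 38 to 38, 6 to 13 and 0 to 3 with Menthae Herba, 0 to 2, 0 to 0 and 0 to 2 with Saposhnikoviae Radix, 4 to 4, 1 to 2 and 0 to 0 with Saengmaek-san, 12 to 17, 0 to 6 and 0 to 2 with Guibi-tang, 19 to 24, 2 to 6 and 0 to 2 with Soyo-san, and 0 to 3, 3 to 8 and 0 to 4 with Okbyeongpung-san. The majority at 100 µg/mL changed direction with Guibi-tang without vehicle replicate 1 (5 called) and with Okbyeongpung-san without vehicle replicate 2 (5), vehicle replicate 3 (3) or its replicate 3 (3). From 20 to 500 µg/mL the ranges were 0 to 1 with Saengmaek-san, 7 to 12 with Guibi-tang and 9 to 14 with Soyo-san. For the differences of Menthae Herba they were 33 to 37 against Guibi-tang, 34 to 36 against Saposhnikoviae Radix, 26 to 31 against Soyo-san, 36 to 37 against Saengmaek-san and 37 to 38 against Okbyeongpung-san, and they were 0 to 1 for Guibi-tang against Saengmaek-san and 3 to 7 for Soyo-san against Okbyeongpung-san. Of 992 alternatives for 80 values of single genes, 889 kept direction and call, 101 lost the call and 2 reversed: ECT2 with Menthae Herba at 500 µg/mL had 0.037 without vehicle replicate 1 and 0.000 without Menthae Herba 500 µg/mL replicate 2, with -0.038 as its lowest value without 1 library. With the replicate number as a block, the calls were 38 with Menthae Herba at 500 µg/mL, 15 with Guibi-tang and 18 with Soyo-san from 20 to 500 µg/mL. The replicate numbers were not used as pairs in the main fit.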
